A study of Mus musculus with 6 samples.

Results

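The 9 genes described here encode proteins that restrain the growth kinase complex mTORC1: the sestrins Sesn1, Sesn2 and Sesn3, the REDD proteins Ddit4 (REDD1) and Ddit4l (REDD2), the arginine sensor Castor1, and the GATOR1 subunits Depdc5, Nprl2 and Nprl3. They were chosen by name, and all 9 were measured among 18193 genes, through 21 probe sets that each name a single gene. Each gene is represented by its brightest probe set, judged by the mean of the 6 arrays, and the others are given beside it. RNA came from sorted mouse bone marrow stem and progenitor cells (Flt3-Lin-Sca1+cKit+) on a C57BL/6 background, and was measured on 6 single-colour arrays. The 3 Raptor mutant arrays came from mice with floxed exon 6 on both Raptor alleles and the MxCre transgene. The 3 wild type arrays came from mice with the same floxed alleles and no MxCre. All mice of both groups had been injected with pIpC, which induces interferon. They had 3 doses of 15 µg/g within 5 days, and the sort took place 5 weeks later. MxCre is driven by an interferon-responsive promoter that is active in many cell types, so deletion need not be confined to the sorted cells. The labels give neither age nor sex, and do not say whether an array stands for a single mouse. The p-values below therefore reflect array-to-array spread, some of which may be technical.

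mTORC1 is switched on at the lysosome, where Rag GTPases recruit it through its subunit Raptor and the small GTPase Rheb activates it. GATOR1 turns the Rag GTPases off, and a second complex, GATOR2, holds GATOR1 in check. Sestrins bind GATOR2, through which Sesn2 releases GATOR1 when leucine is short, and CASTOR1 does the same when arginine is short. REDD1 acts on the other arm, through the TSC complex that turns Rheb off. In many cell types sestrins and REDD1 are induced by stress, through p53, FoxO factors, ATF4, hypoxia factors or glucocorticoids. All 9 proteins therefore act upstream of the complex from which Raptor was deleted.

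Upstream sequences are shown for the 4 genes whose groups did not overlap, since these are the ones the comparison turns on. RefSeq start sites of GRCm38.p6 matched all 9 members, with 10 start sites in all because Sesn1 has 2. Each line is the 250 bases before a start site, 5′ to 3′ along the gene, and capitals mark a match to any of the 6 motifs searched on both strands.
Sesn1 first start site, chr10:41810324-41810573, plus strand: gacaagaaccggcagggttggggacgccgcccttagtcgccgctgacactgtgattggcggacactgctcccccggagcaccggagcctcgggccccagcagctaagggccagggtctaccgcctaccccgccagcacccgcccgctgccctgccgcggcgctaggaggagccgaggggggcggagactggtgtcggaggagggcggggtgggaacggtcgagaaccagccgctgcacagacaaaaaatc
Sesn1 second start site, chr10:41887189-41887438, plus strand: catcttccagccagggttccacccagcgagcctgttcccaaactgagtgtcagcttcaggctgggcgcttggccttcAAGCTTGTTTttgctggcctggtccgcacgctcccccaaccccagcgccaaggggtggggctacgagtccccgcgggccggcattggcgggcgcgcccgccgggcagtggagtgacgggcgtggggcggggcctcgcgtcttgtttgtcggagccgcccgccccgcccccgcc
Sesn3, chr9:14276051-14276300, plus strand: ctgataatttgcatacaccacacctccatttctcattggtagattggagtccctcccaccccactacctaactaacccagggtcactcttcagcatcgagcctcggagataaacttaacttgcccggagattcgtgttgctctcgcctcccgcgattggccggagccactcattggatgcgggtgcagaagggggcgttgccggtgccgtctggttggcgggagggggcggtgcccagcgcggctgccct
Ddit4, chr10:59951771-59952020, minus strand: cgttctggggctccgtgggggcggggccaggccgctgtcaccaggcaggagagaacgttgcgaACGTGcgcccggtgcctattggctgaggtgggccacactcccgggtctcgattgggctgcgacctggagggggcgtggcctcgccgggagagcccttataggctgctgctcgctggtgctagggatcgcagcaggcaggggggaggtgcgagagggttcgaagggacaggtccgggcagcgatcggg
Castor1, chr11:4217975-4218224, plus strand: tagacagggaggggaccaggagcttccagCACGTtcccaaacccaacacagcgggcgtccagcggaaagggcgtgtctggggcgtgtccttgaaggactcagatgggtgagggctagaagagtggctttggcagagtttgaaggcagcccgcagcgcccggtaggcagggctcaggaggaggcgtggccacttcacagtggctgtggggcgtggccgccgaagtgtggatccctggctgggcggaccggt
The motifs were the FoxO motif GTAAACA, the ATF4 motif TGATGNAA, the hypoxia core ACGTG, the E-box CACGTG that contains that core, the glucocorticoid element and the p53 motif. The p53 motif was the 10-letter unit RRRCWWGYYY, where R is A or G, W is A or T and Y is C or T. A lone unit counted as a match, with no other copy required beside it. Among 32851 start sites in the table, 3.17% held the FoxO motif, 3.45% the ATF4 motif, 16.6% the hypoxia core, 6.02% the E-box, 0.387% the glucocorticoid element and 7.13% the p53 motif. The second Sesn1 start site held 1 p53 motif, AAGCTTGTTT, which begins 173 bases before the start. Ddit4 held 1 hypoxia core, which begins 187 bases before the start, and Castor1 held 1 on the other strand, 221 bases before it. The first Sesn1 start site and Sesn3 held none of the 6. Of the members not shown, Ddit4l and Nprl2 each held 1 p53 motif, and Sesn2, Depdc5 and Nprl3 held none. A match describes these letters only, and the arrays do not say which Sesn1 start site was used.

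The targeted gene does not check the labels on these arrays. The brightest Rptor probe set stood at a log2 signal of 8.68, 7.99 and 8.33 on Raptor mutant arrays 1 to 3, against 8.57, 8.17 and 7.59 on wild type arrays 1 to 3, with a log2 change of 0.22 ± 0.29 (SE). At the other 2 Rptor probe sets the log2 change was -0.32 ± 0.25 and 0.99 ± 0.46 (SE), with overlapping groups at all 3. The position of the probes with respect to exon 6 was not examined. Of the surface and progenitor markers of the sort, Kit stood between 10.71 and 10.94 on mutant arrays and between 10.72 and 11.17 on wild type arrays, while Ly6a had no probe set naming it alone. The Y-linked gene Kdm5d stood at 3.69 to 3.88 on mutant arrays, against wild type values of 3.60, 10.55 and 9.53 on arrays 1 to 3. Eif2s3y, also Y-linked, stood at 3.95 to 4.53, against 3.98, 10.81 and 10.49. Xist, the X-inactivation RNA gene, stood at 13.37 to 13.40, against 13.46, 8.05 and 5.69. Wild type arrays 2 and 3 alone thus carried Y-linked signal, and no mutant array did. The groups differ in apparent sex, which cannot be fully told apart from genotype. Any comparison without wild type arrays 2 and 3 therefore has wild type array 1 as its only control. Over all probe sets that array correlated with mutant arrays at a Pearson r of 0.977 to 0.984. Its r was 0.962 with wild type array 2 and 0.967 with wild type array 3, and those 2 arrays correlated with each other at 0.957.

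Sesn3, Sesn1 and Ddit4 were lower in Raptor mutant than in wild type cells, with log2 changes of -0.97 to -1.49, Castor1 was higher, and the other 5 members overlapped between groups. None of the 9 was called at an adjusted p under 0.05 by limma, where 20 genes, or 0.110% of all genes, were called. At an unadjusted p under 0.05, 3 members were lower (4.24% of all genes were) and 1 was higher (5.81% of all genes were), which makes 4 of 9 against 10.0% of all genes. The same 4 members had groups that did not overlap, against 16.1% of all genes. Of these 4, 3 lay wholly below wild type (7.98% of all genes did) and 1 wholly above it (8.08% of all genes did). The median log2 change was -0.18 over the 9 members, which is the value of Ddit4l, and -0.07 over all genes. Without wild type array 3 these medians were -0.099 and -0.035, and without wild type array 2 they were -0.12 and -0.045. The count of 4 at an unadjusted p under 0.05 was also 4 without wild type arrays 2 and 3, against 9.5% of all genes, and in a fit with a covariate for Y-linked signal, against 6.32% of all genes.

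**Figure D1:**
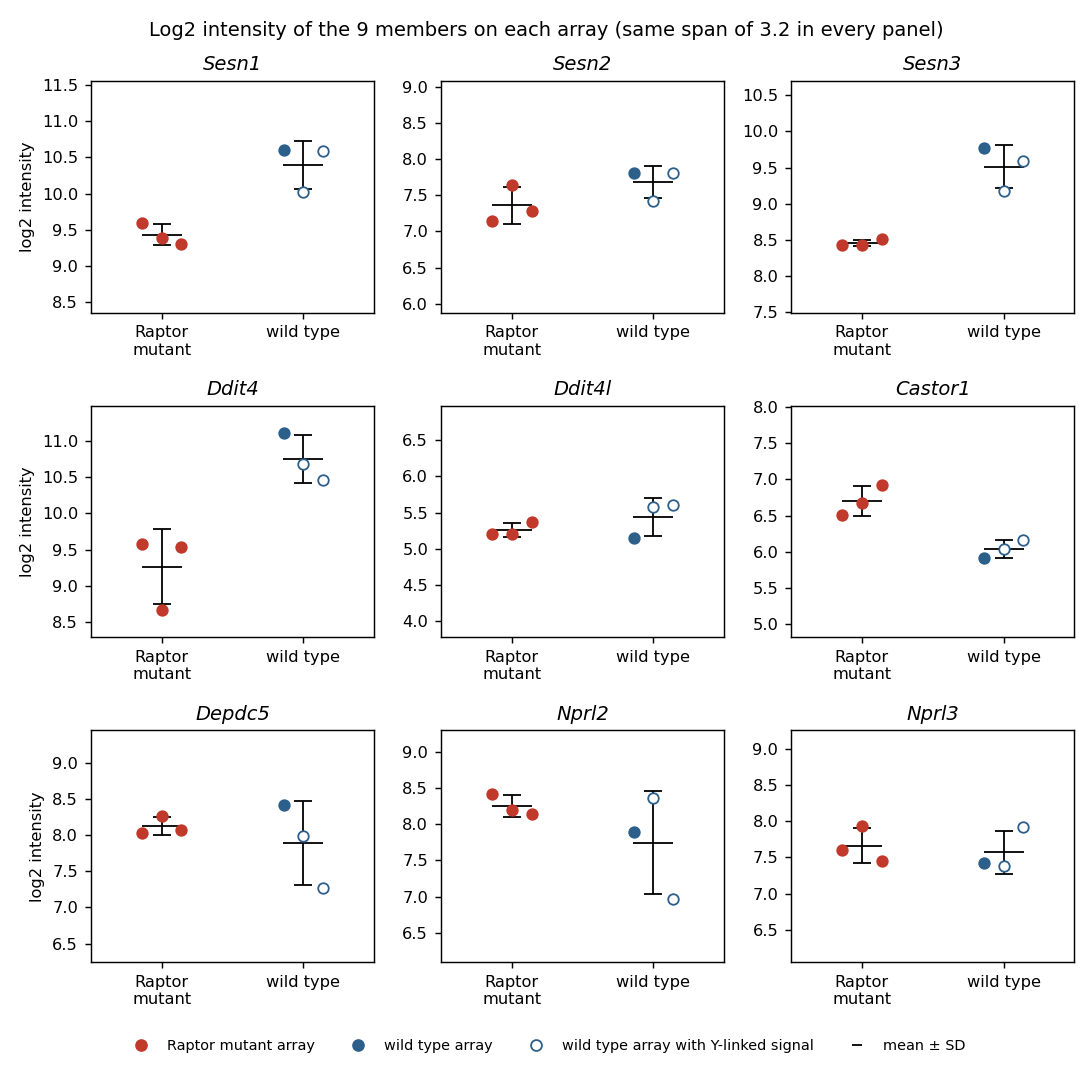
Log2 intensity (y axis) of each member's brightest probe set on the 3 Raptor mutant arrays (red, left) and the 3 wild type arrays (blue, right), with the mean and SD in black. Hollow points are the 2 wild type arrays with Y-linked signal. Groups are separate for Sesn1, Sesn3, Ddit4 and Castor1 and overlap for the other 5.

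Sestrins are stress-induced proteins that bind GATOR2 and, in Sesn2, sense leucine directly. Sesn3 stood at a log2 signal of 8.43, 8.43 and 8.51 on Raptor mutant arrays 1 to 3, against 9.76, 9.18 and 9.59 on wild type arrays 1 to 3. The 3 mutant values spanned 0.082 and lay below every wild type value. Its log2 change was -1.06 ± 0.19 (SE), a signal 2.08-fold higher in wild type, with a limma adjusted p of 0.14 and an unadjusted p of 5.6e-04. Both Sesn3 probe sets separated the groups. The dimmer one stood at 8.25, 7.91 and 8.32 on mutant arrays, against wild type values of 9.07, 9.30 and 8.68, with a log2 change of -0.86 ± 0.21 (SE).

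Sesn1, a p53 target in many cell types, stood at a log2 signal of 9.60, 9.39 and 9.31 on Raptor mutant arrays, and at 10.60, 10.02 and 10.58 on wild type arrays. The groups were separate. At the brightest probe sets of Sesn1, Sesn2 and Sesn3, wild type array 2 was the lowest of its group. At the other probe set of Sesn2 (6.30, 6.36 and 6.03 on wild type arrays) and of Sesn3 it was the highest. Sesn1 had a log2 change of -0.97 ± 0.21 (SE), a signal 1.96-fold higher in wild type, with a limma adjusted p of 0.17 and an unadjusted p of 0.0017. That probe set (1433711_s_at) belongs to a class whose probes may match transcripts of more than 1 gene by the manufacturer's naming. Probe set 1454699_at is not of that class, but the platform annotation gives it the same source sequence. It stood at 8.57, 8.74 and 8.55 on mutant arrays, against wild type values of 9.92, 9.61 and 9.70. Its log2 change of -1.12 ± 0.16 (SE, limma adjusted p of 0.13 over all probe sets) was close to the -1.09 ± 0.28 of probe set 1438931_s_at. The dimmest Sesn1 probe set, 1444376_at, had a log2 change of -0.31 ± 0.55 and spread from 5.27 to 7.42 among wild type arrays.

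Sesn2 overlapped between groups. Its log2 signal was 7.14, 7.65 and 7.29 on mutant arrays, against wild type values of 7.80, 7.42 and 7.81, where mutant array 2 stood above wild type array 2. The log2 change was -0.32 ± 0.20 (SE, limma adjusted p of 0.62), with a 95% interval of -0.78 to 0.14, and -0.33 ± 0.17 at the other probe set. The platform annotation gives both Sesn2 probe sets the same source sequence. Whether the sestrins differed in size of change was tested on within-array log2 differences between genes, with exact two-sided permutation tests over arrays, which cannot go below 0.1 with 3 arrays a group. The Sesn3 minus Sesn2 difference averaged 1.10 ± 0.27 in mutant and 1.84 ± 0.11 in wild type arrays (SD, n = 3 each), with an exact p of 0.1 (0.13 adjusted over 4 pairs). The Sesn1 minus Sesn2 difference averaged 2.07 ± 0.36 in mutant and 2.72 ± 0.11 in wild type arrays (SD, n = 3 each), with the same exact p of 0.1. For both pairs the groups were separate. With the mean of each gene's probe sets the Sesn1 minus Sesn2 pair overlapped, with an exact p of 0.3 (0.4 adjusted), while the Sesn3 minus Sesn2 pair kept its exact p of 0.1. The Sesn1 minus Sesn3 difference averaged 0.98 ± 0.18 in mutant and 0.89 ± 0.09 in wild type arrays (SD, n = 3 each), with an exact p of 0.7.

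Ddit4 had the most negative log2 change of the 9 members. REDD1, its product, is short-lived and restrains mTORC1 through the TSC complex. Its log2 signal was 9.58, 8.67 and 9.54 on Raptor mutant arrays, against wild type values of 11.10, 10.69 and 10.46. Mutant array 2 was the lowest of all 6, and wild type array 1, the one without Y-linked signal, was the highest. Ddit4 had a log2 change of -1.49 ± 0.29 (SE), a signal 2.80-fold higher in wild type, with a limma adjusted p of 0.15 and an unadjusted p of 9.9e-04. With trend and robust fitting the adjusted p was 0.063, the lowest for Ddit4 among 17 settings, and without wild type arrays 2 and 3 the log2 change was -1.84 with an adjusted p of 0.34. Ddit4 has a single probe set here, so no other one checks it.

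Ddit4l, the paralog of Ddit4, was dim, at the 20.7th percentile of all genes by mean. It stood at a log2 signal of 5.20, 5.21 and 5.38 on mutant arrays, against wild type values of 5.14, 5.57 and 5.61. Wild type array 1 was the lowest of all 6, so the groups overlapped. Its log2 change was -0.18 ± 0.18 (SE, limma adjusted p of 0.72), and it was -0.21 and -0.14 at the other 2 probe sets. Against wild type array 1 alone its sign turned, to 0.12. The Ddit4 minus Ddit4l difference averaged 4.0 ± 0.48 in mutant and 5.31 ± 0.58 in wild type arrays (SD, n = 3 each), with an exact permutation p of 0.1 (0.13 adjusted over 4 pairs). Because Ddit4l was dim in both groups, a fall of it might not be seen. This pair therefore cannot tell whether Ddit4l changed less than Ddit4.

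Castor1 was the 1 member that was higher in Raptor mutant cells with separate groups. Its log2 signal was 6.51, 6.68 and 6.92 on mutant arrays, against wild type values of 5.91, 6.03 and 6.15. The lowest mutant value lay 0.35 above the highest wild type value. Castor1 had a log2 change of 0.66 ± 0.17 (SE), or 1.59-fold, with a limma adjusted p of 0.25 and an unadjusted p of 0.0050. Its single probe set was dim, at the 35.3rd percentile of all genes by mean, and no detection calls were used. Castor2, whose product pairs with CASTOR1, had the smallest p among the other mTORC1 inhibitors and the opposite sign. Castor2 stood at 7.71, 7.06 and 7.10 on mutant arrays, against wild type values of 8.56, 8.81 and 8.63, a log2 change of -1.38 ± 0.21 (SE, limma adjusted p of 0.099). Its other 3 probe sets had log2 changes of -1.26, -0.84 and -0.50.

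The 3 GATOR1 subunits did not separate the groups. GATOR1 is the complex through which sestrins and CASTOR1 act, in which Nprl2 pairs with Nprl3 and Depdc5 contacts the Rag GTPases. Nprl2 had a log2 signal of 8.42, 8.19 and 8.14 on mutant arrays, against wild type values of 7.90, 8.37 and 6.97. Wild type array 3 stood lowest, and the log2 change was 0.51 ± 0.33 (SE, limma adjusted p of 0.63) with it and 0.12 without it. Without wild type array 2 it was 0.82, with separate groups, an unadjusted p of 0.025 and a limma adjusted p of 0.44. Nprl3 stood at 7.61, 7.93 and 7.46 on mutant arrays, against wild type values of 7.43, 7.38 and 7.92, a log2 change of 0.09 ± 0.21 (SE, limma adjusted p of 0.87). The 95% interval of Nprl3 ran from -0.40 to 0.58, so a change of 1 log2 unit in either direction, the size seen for Sesn1 and Sesn3, lies outside it.

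Depdc5 was the least settled member, since its 6 probe sets disagreed in sign. The brightest stood at 8.03, 8.26 and 8.07 on mutant arrays, against wild type values of 8.42, 7.99 and 7.27, a log2 change of 0.23 ± 0.28 (SE, limma adjusted p of 0.76). The log2 change was -0.08 without wild type array 3 and -0.30 without wild type arrays 2 and 3. Of the other probe sets, 3 had log2 changes of -0.34, -0.16 and -0.24 and 2 had log2 changes of 0.59 and 0.38. Groups were separate at 1 of them, 1444996_at, with a log2 signal of 6.18, 6.12 and 6.41 on mutant arrays, against wild type values of 5.96, 5.02 and 5.98 (unadjusted limma p of 0.073).

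**Figure D2:**
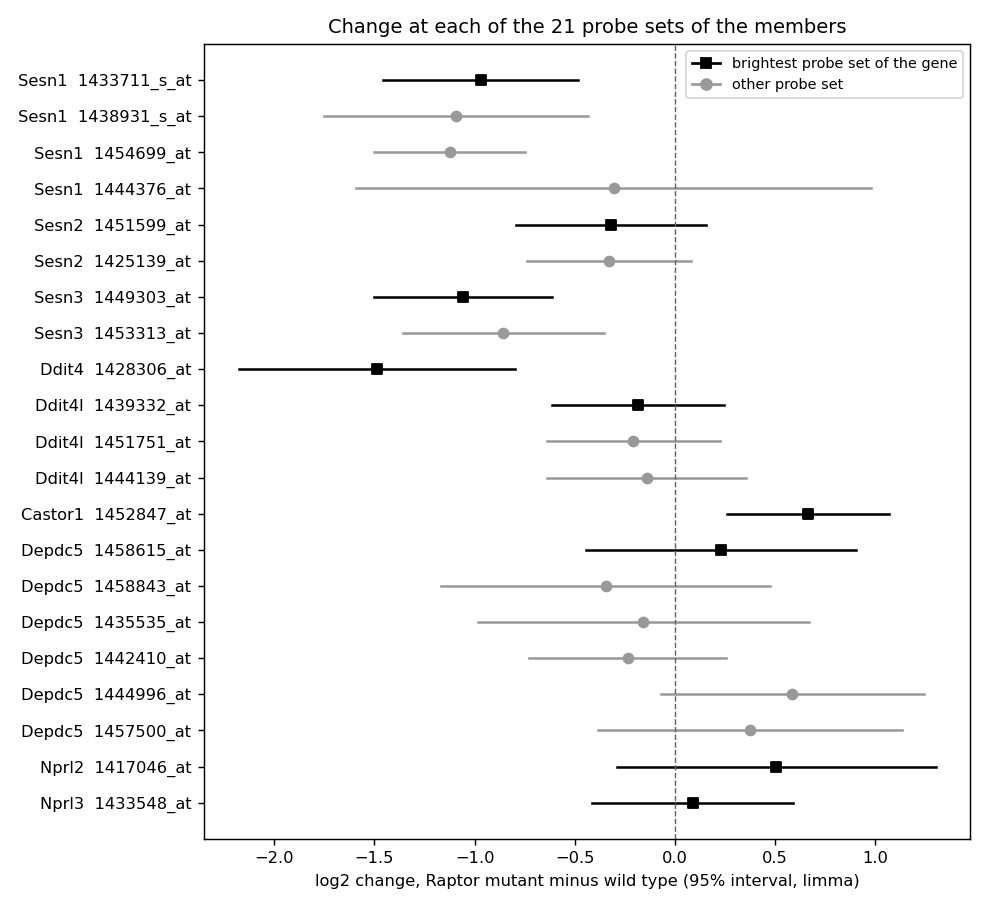
Log2 change, Raptor mutant minus wild type (x axis), with its 95% interval from limma, at each of the 21 probe sets of the members. Black squares are the brightest probe set of a gene and grey circles the others. The intervals of 3 of 4 Sesn1 probe sets and both Sesn3 probe sets lie below 0, while the 6 Depdc5 probe sets fall on both sides of it.

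Other genes of the same pathway were counted from lists. At an unadjusted p under 0.05, 4.24% of all genes were lower in Raptor mutant cells and 5.81% higher. Among 19 measured other inhibitors of mTORC1, 2 were lower and 1 higher at an unadjusted p under 0.05 and 0 were called, with a median log2 change of -0.06. That median changed sign, to 0.036 without mutant array 1 and 0.0021 without mutant array 2, and ran from -0.12 to 0.051 over all settings. Those 3 were Castor2, the AMP-activated kinase subunit gene Prkag1 (-0.39 ± 0.15, SE) and Itfg2 (0.50 ± 0.21), a subunit of the KICSTOR complex that tethers GATOR1 to lysosomes. The TSC complex, the route of REDD1, had log2 changes of -0.10 for Tsc1, 0.19 for Tsc2 and -0.38 for Tbc1d7, with limma adjusted p of 0.80, 0.80 and 0.61.

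Among 22 measured genes of GATOR2 and other activators of mTORC1, 7 were higher and 0 lower at an unadjusted p under 0.05. Of all genes 5.81% were higher and 4.24% lower. Among the 22, 0 were called, and the median log2 change was 0.25. That median was 0.17 without the lower 50% of genes, where the median of all genes was 0.06, and 0.19 with quantile normalization. The 4 with the smallest p were Fnip2, Rragd, Flcn and Fnip1, of the folliculin complex and the Rag GTPases, with log2 changes of 1.25 ± 0.19, 0.98 ± 0.23, 0.76 ± 0.19 and 1.07 ± 0.30 (SE). Limma adjusted p of these 4 ran from 0.099 to 0.29. Seh1l, named after its values were seen, was the GATOR2 subunit among the 7, at a log2 signal of 11.73, 11.80 and 11.82 on mutant arrays, against wild type values of 11.54, 11.28 and 11.23.

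Regulators that induce sestrins and REDD1 in other settings showed no called difference at RNA level. Of 11 measured (Trp53 had no probe set naming it alone), 0 had an unadjusted p under 0.05, against 10.0% of all genes. Log2 changes of the 11 ran from -0.43 to 0.35. Foxo3 had a log2 change of 0.17 ± 0.15, Atf4 of -0.23 ± 0.18, Hif1a of 0.13 ± 0.19 and Nr3c1, the glucocorticoid receptor gene, of 0.26 ± 0.19 (SE). Foxo1, the most negative, had one of -0.43 ± 0.50 (SE). Groups were separate at 1 of the 11, Trp63, which was lower at -0.35 ± 0.18 (SE). Of all genes 7.98% lay wholly below wild type. At an unadjusted p under 0.05, 4.24% of all genes were lower and 5.81% higher. Of 10 genes listed for turnover and partners of these proteins, 1 was lower and 1 higher at that threshold. These were Rnf167, a ubiquitin ligase gene, with a log2 change of -0.58 ± 0.18, and Ddb1, an adaptor of cullin ligases that degrade REDD1 in human cells, with one of 0.42 ± 0.17 (SE). Activity of these factors is not measured by their RNA.

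**Figure D3:**
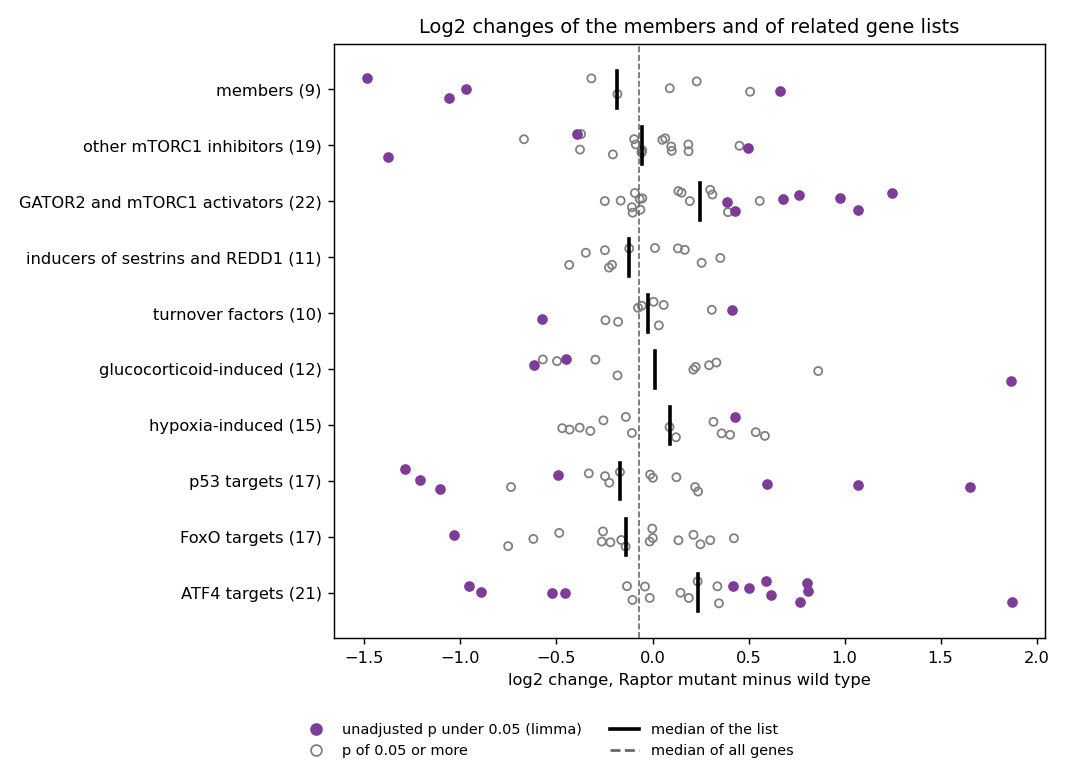
Log2 change, Raptor mutant minus wild type (x axis), of every measured gene in the 9 members and 9 related lists, with the number of measured genes in brackets. Filled points had an unadjusted limma p under 0.05, bars are list medians and the dashed line is the median of all genes (-0.07). The activator list has a median of 0.25 and the members one of -0.18.

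Some genes followed members closely over the 6 arrays. Over 8796 genes in the brighter 50%, the highest Pearson r with Ddit4 was that of Trp53inp1 (0.993), a stress-induced p53 target with a log2 change of -1.21. For Sesn1 it was Esco1 (0.991), a cohesin acetyltransferase gene, followed by the glutamate receptor gene Gria3 (0.990) and the kinase gene Dgka (0.988). For Sesn3 it was Sh3bp5 (0.988), with the stem cell receptor gene Tek (0.980) and Sesn1 itself (0.974) also among its 5 highest. For Castor1 it was Tapbp (0.9997), a chaperone gene of antigen loading, with a log2 change of 0.36. These correlations describe 6 arrays that share the group difference, were picked as the highest of 8796, and carry no test.

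Markers of several cell types differed between the groups as well. Summed linear intensity of 8 granulocyte and monocyte markers was 2234 to 5914 on mutant arrays and 18380 to 26783 on wild type arrays. At an unadjusted p under 0.05, 7 were lower and 1 higher, against 4.24% and 5.81% of all genes. The 4 with the smallest p were Camp, S100a8, S100a9 and Lcn2, with log2 changes of -3.81, -3.13, -2.87 and -1.75. Of this list Camp alone was called (limma adjusted p of 0.030). The 1 higher was Csf1r, with a log2 change of 1.39 ± 0.55 (SE), so the markers of this list did not all fall. Summed intensity of 8 stem and progenitor markers was 14741 to 15663 on mutant arrays and 18397 to 20262 on wild type arrays. At the same unadjusted threshold 4 were lower (Mecom, Hlf, Procr and Meis1) and 0 higher. Summed intensity of 9 megakaryocyte and platelet markers was 5527 to 6645 on mutant arrays and 7152 to 9749 on wild type arrays. Here 3 were lower and 1 higher at that threshold.

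Mast cell, basophil, macrophage and dendritic cell markers were higher in sum on mutant arrays. At an unadjusted p under 0.05, 5.81% of all genes were higher and 4.24% lower. Summed intensity of 9 mast cell and basophil markers was 5260 to 8333 on mutant arrays and 2229 to 2886 on wild type arrays. Of these, 5 were higher and 0 lower at that threshold, and 0 were called. Summed intensity of 10 macrophage and dendritic cell markers was 4128 to 9747 on mutant arrays and 1347 to 2013 on wild type arrays. Here too 5 were higher and 0 lower at that threshold, and 0 were called. T and NK cell markers (7 measured) summed to 915 to 1585 on mutant arrays and 353 to 412 on wild type arrays. Gzmb alone had an unadjusted p under 0.05, at a log2 change of 4.21 ± 0.38 (SE, limma adjusted p of 0.013). Of these 7 markers, 5 had log2 changes below 0, among them Cd3e (-0.46), Cd4 (-0.27) and Cd8a (-0.19), and the median was -0.14. B cell markers (9 measured) summed to 612 to 1055 on mutant and 805 to 1097 on wild type arrays. Erythroid markers (8 measured) summed to 3582 to 6258 on mutant and 3222 to 4340 on wild type arrays. None of the B cell or erythroid markers had an unadjusted p under 0.05. RMA signals have no true 0, so no marker could be called absent. The part of these cell type differences in the members' values was not tested, and in bulk RNA fewer cells of a type and less RNA per cell cannot be told apart.

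Across 17 settings (16 for Castor1, which a filter on the lower 50% of genes leaves out) the 4 separate members kept their sign. Log2 changes ran from -1.19 to -0.87 for Sesn1, from -1.31 to -0.93 for Sesn3, from -1.84 to -1.19 for Ddit4 and from 0.56 to 0.78 for Castor1. Since their groups do not overlap, no omission of arrays could have turned the sign. Without wild type arrays 2 and 3 the log2 change was -1.17 for Sesn1, -1.31 for Sesn3 and 0.78 for Castor1, with limma adjusted p of 0.28, 0.21 and 0.37. Their limma adjusted p stayed above 0.05 in every setting, with a minimum of 0.063 for Ddit4, 0.086 for Sesn3, 0.11 for Sesn1 and 0.16 for Castor1.

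**Figure D4:**
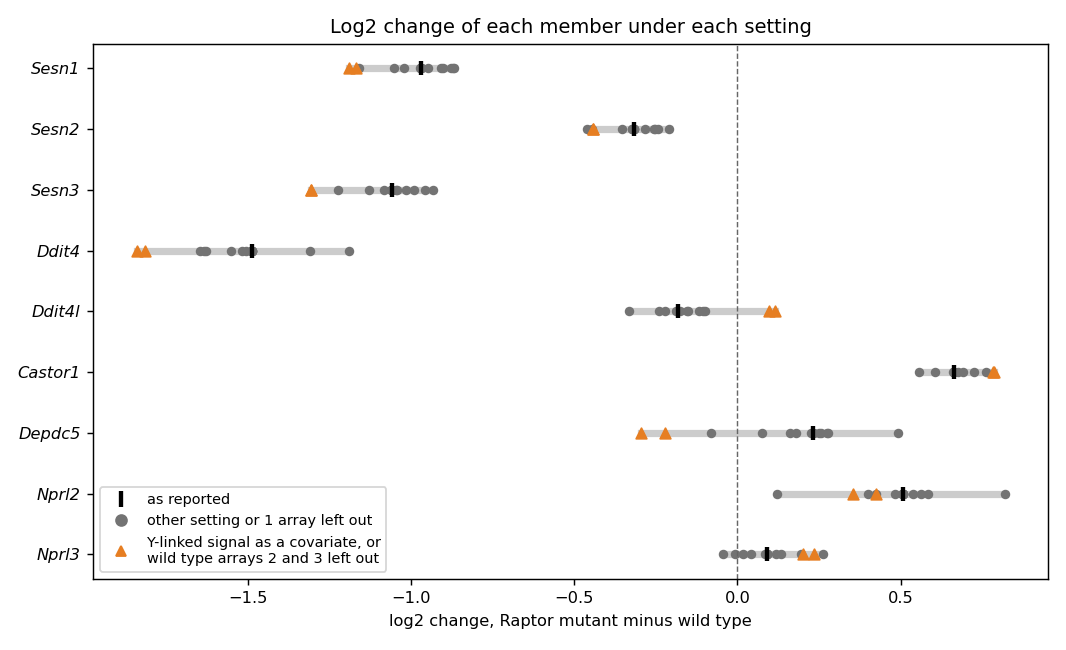
Log2 change, Raptor mutant minus wild type (x axis), of each member as reported (black bar) and under each of up to 17 other settings (grey points). Orange triangles are the 2 settings that account for Y-linked signal, as a covariate over all 6 arrays or by leaving out wild type arrays 2 and 3. Sesn1, Sesn2, Sesn3 and Ddit4 stay below 0 and Castor1 and Nprl2 above it, while Ddit4l, Depdc5 and Nprl3 cross it.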

How the data were processed

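The deposited values give the intensity of every probe set on each array. Per the submitters' processing notes the authors used RMA, and the deposited intensity values are linear, so log2 was taken. For the RMA settings and the genome build of the probe sets, nothing is stated in the sources used here. Of 45101 probe sets, 34945 name a single gene in the platform annotation, which gave 18193 genes with the brightest probe set per gene. Entrez identifiers of 34741 matched the GRCm38.p6 gene table, with 0 symbols updated. The test was that of limma 3.58.1 under R 4.3.3, with lmFit and eBayes, no covariate, mutant minus wild type, and Benjamini-Hochberg adjustment over all genes, and the procedure was tested on simulated data. The number of arrays limits the precision. Members, gene lists, tests and settings were chosen with earlier results of these data known. All members were named. The other genes eligible for naming were up to 4 per list at the smallest p under 0.05 and the 5 most like each member at that threshold. Rptor, Xist, Kdm5d and Eif2s3y were added to describe arrays. Not every eligible gene is printed. Genes of the TSC complex, Seh1l, the inducers, Cdkn1a, Trib3, Csf1r, Cd3e, Cd4 and Cd8a were named after their values were seen. Of 231 other list entries 212 were measured. Settings tried were the replicate block, median centring, quantile normalization, mean of probe sets, all probe sets, filters on dim genes, trend and robust fitting, array weights, each array left out, and Y-linked signal.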

Additional observations from a re-analysis of the deposited data

How the results depend on the processing

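None of the 9 members was called by limma under any of 17 settings, and 3 to 5 had an unadjusted p under 0.05, against 5.86% (without mutant array 3) to 21.6% (without wild type array 1) of all genes. The count of all genes called was 20 as reported, 10 with the replicate block, 12 with each probe set tested separately, 40 with trend and robust fitting, 8 with array weights and 5 (without wild type array 3) to 31 (without wild type array 1) with 1 array left out. It was 10 and 9 without mutant arrays 1 and 3. With a covariate for Y-linked signal it was 0 (1149 genes at an unadjusted p under 0.05) and 0 without wild type arrays 2 and 3 (1729 genes at an unadjusted p under 0.05), where a lone wild type array is assumed to vary like the mutants. In that last setting 9 of 9 members had groups that did not overlap, against 55.6% of all genes. The members' median log2 change was -0.44 without the lower 50% of genes, where fewer members are measured and the median of all genes was 0.06. Signs turned for Ddit4l (0.10 with the covariate and 0.12 without wild type arrays 2 and 3) and for Depdc5 (-0.22 and -0.30). With 1 array left out, Depdc5 ran from -0.080 to 0.49, Nprl3 from -0.043 to 0.26 and the unequal change of Sesn1 and Sesn3 from -0.0079 to 0.18. The causes were not tested. The other 142 of 149 log2 changes of members kept their sign and their side of the threshold. Same-numbered arrays deviated from their group means with correlations of 0.18, -0.03 and 0.06, so the replicate numbers were not taken as pairs. With the replicate block 4 members again had an unadjusted p under 0.05, as had 1994 of 18193 genes, and the median was -0.18.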

Other observations

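Targets of the factors that induce sestrins and REDD1 elsewhere went both ways in Raptor mutant cells, and 0 in any of the 5 target lists was called by limma over all genes. At an unadjusted p under 0.05, 4.24% of all genes were lower and 5.81% higher. Of 17 measured p53 targets, 4 were lower and 3 higher at that threshold. Btg2, an antiproliferative gene, had a log2 change of -1.10 ± 0.20, Plk2 one of -1.29 ± 0.25, Trp53inp1 one of -1.21 ± 0.26 and the membrane protein gene Perp one of 1.65 ± 0.32 (SE). Cdkn1a, the p21 gene, had one of 0.60 ± 0.25, chosen after its value was seen. Of 21 ATF4 targets, 8 were higher and 4 lower, with a median log2 change of 0.24. That median was 0.067 without wild type array 2, 0.12 with the covariate for Y-linked signal and 0.13 without wild type arrays 2 and 3. Stc2, a secreted glycoprotein gene, had a log2 change of 1.87 ± 0.38, the serine synthesis gene Phgdh one of 0.80 ± 0.18 and the leucine transporter gene Slc7a5 one of 0.77 ± 0.20 (SE). Sars, a transfer RNA synthetase gene, had one of 0.62 ± 0.20. Trib3, chosen after its values were seen, had one of -0.96 ± 0.33.

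Of 17 FoxO targets, 1 was lower at an unadjusted p under 0.05 (4.24% of all genes were) and 0 higher (5.81% of all genes were). It was Pink1, the kinase gene of mitochondrial quality control, with a log2 signal of 11.30, 10.86 and 10.76 on mutant arrays, against wild type values of 12.02, 12.44 and 11.55. Of 12 glucocorticoid-induced genes, 2 were lower (Dusp1, -0.62 ± 0.18, and Zfp36, -0.45 ± 0.17) and 1 was higher (Sgk1, 1.87 ± 0.56, log2 change and SE). Of 15 hypoxia-induced genes, 1 was higher (Ankrd37, 0.43 ± 0.18) and 0 lower. Members' medians and those of these lists are counts and levels only, and no list was tested as a set.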
